A study of Mus musculus with 27 samples.

Results

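The genes described here are named as genes of cytoplasmic ribosomal proteins. They were chosen by symbol: Rps or Rpl followed by a number and an optional a, l, x or l1, and also Rpsa, Rplp0, Rplp1 and Rplp2, leaving out the Rps6k kinases and pseudogenes. Of these, 48 genes had a probe set that the array annotation assigns to them alone, and 45 of the 48 passed a filter on low signals, among 13527 genes tested in all. The 45 comprised 22 proteins of the large subunit, 19 of the small subunit and 4 paralogs, which are related genes whose symbols end in l or l1. Rpl39l, Rpl3l and the own probe set of Rps16 did not pass: no array reached the table's median signal of 45.6, and their highest signals were 32.9, 44.6 and 6.97. RefSeq lists 83 coding genes that meet the symbol rule, and 28 of them could be read only with probe sets shared with other genes, mostly processed pseudogenes, while 8 had no probe set, so 45 is a part of the family. Not all of the 48 genes are among these 83 coding genes.

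A ribosome has a small subunit, which reads the mRNA, and a large subunit, which joins amino acids, and most ribosomal proteins are present once in each ribosome. Their mRNAs begin with a run of pyrimidines, the 5′ terminal oligopyrimidine (TOP) motif, through which mTOR signalling controls their translation, and their synthesis rises with cell growth and with Myc activity. Granule neuron precursors of the cerebellum divide in response to Sonic hedgehog, which raises Mycn in them, and stop dividing as they become granule neurons.

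Expression was measured in total RNA on 27 Affymetrix arrays of mouse cerebellum. Most tumours carried SmoM2, a constitutively active Smoothened, switched on by a cre driver: 3 arrays of Math1-cre:SmoM2, 3 of Tlx3-cre:SmoM2, 7 of Olig2-tva-cre:SmoM2 and 6 of hGFAP-cre:SmoM2. A further 2 tumour arrays came from Ptc1+/- mice, heterozygous for the Hedgehog receptor gene Ptch1 in all their cells and carrying no cre or SmoM2 by their labels. The 6 non-tumour arrays held cerebellar tissue from the Ptc1+/- line (1 array) and from SmoM2 lines with Mxi1-cre (2), Olig2-tva-cre (2) or hGFAP-cre (1). The controls thus came from mutant lines and none was labelled wild type, while Math1 and Tlx3 tumours had no control of their own line. The Math1 driver acts in the granule neuron lineage, whereas the drivers from Olig2 and from the human GFAP promoter act in wider progenitor populations. Age, strain and sex were not given in the sources used here. Each sample is named as a biological replicate or a numbered control without naming an animal, so a p-value here reflects only how much these samples vary, and the small number of arrays in a group limits the precision. By its title, the study concerned how the identity of granule neuron precursors is acquired in medulloblastoma driven by Hedgehog signalling.

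Values are log2 of MAS5 signal after each array was scaled to a common 2% trimmed mean, and differences are tumour minus non-tumour on that scale. A gene was called when its limma p-value, adjusted over all 13527 genes, was under 0.05. The arrays differed in brightness before scaling (trimmed means of 42.6 to 206), and 7 tumour arrays lay below 85. In 5 arrays (2 Olig2, 2 hGFAP and 1 non-tumour) the mean log2 ratio of the 3′ to the 5′ control probe sets of Gapdh and Actb was 1.67 to 1.88, against -0.15 to 0.90 in the other 22. A high ratio marks shorter labelled RNA. Markers checked the tissue. Mature granule neuron markers fell in 7 of 7 cases, with a mean log2 signal of 11.09 to 11.57 on non-tumour and 6.02 to 9.02 on tumour arrays, and Purkinje cell markers fell in 6 of 6 (11.17 to 11.74 against 4.83 to 8.48). Granule neuron precursor markers rose in 7 of 8 cases (6.11 to 7.47 against 10.12 to 10.95) and mitosis markers in 8 of 8 (4.22 to 5.53 against 8.18 to 10.19). Oligodendrocyte markers fell in 7 of 7 cases (8.50 to 9.35 against 5.05 to 7.23), astrocyte markers fell in 6 of 7 and rose in 1 (9.34 to 9.89 against 7.31 to 9.64), microglia and macrophage markers rose in 9 of 9 (6.07 to 6.91 against 8.11 to 9.52), and neither of 2 blood markers was called (3.86 to 6.52 against 3.71 to 8.13). In such bulk samples a change in the proportions of cell types and a change of RNA per cell cannot be told apart, and every tumour difference below moved with these marker shifts, whose part in it was not tested.

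The sequences around the annotated starts show what many of these genes share. RefSeq windows of 300 bases (250 before and 50 after the start, GRCm38.p6) were available for 42 of the 48 genes. A C followed by at least 4 pyrimidines, read on the strand of the gene and beginning within 10 bases of the start, was found in 26 of 42 (61.9%), against 32.6% of all 27025 genes with such a window. With the first C of the run required at the annotated start itself, the run was found in 1 of 42 (2.38%) against 1.26% of all genes. This count left out runs that began before the start and crossed it. In Rps27 and Rpl35 the base at the start is a C with at least 4 pyrimidines after it, inside such a longer run. Both percentages are thus lower limits for starts with a C and 4 pyrimidines, as a TOP motif has them. The starts shown are those of a strongly raised small subunit gene (Rps26), a gene with a long run (Rpl35), a parent and paralog that differed in these tumours (Rps27 and Rps27l), a paralog that was not called (Rpl22l1), and Rpl39, whose probe sets disagreed. Each window covers 40 bases before and 20 bases from the start, 5′ to 3′ on the strand of the gene, and the pyrimidine run is in capitals. None of the runs shown begins at the annotated start itself: their first bases lie between 7 bases before it (Rpl35) and 4 bases after it (Rps26).
Rps26 (chr10:128626487-128626546, minus strand): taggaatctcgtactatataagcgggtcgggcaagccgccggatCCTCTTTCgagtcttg
Rpl35 (chr2:39005112-39005171, minus strand): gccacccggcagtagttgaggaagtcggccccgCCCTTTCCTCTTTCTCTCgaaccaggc
Rps27 (chr3:90213629-90213688, minus strand): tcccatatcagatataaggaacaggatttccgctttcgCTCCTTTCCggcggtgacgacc
Rps27l (chr9:66946046-66946105, plus strand): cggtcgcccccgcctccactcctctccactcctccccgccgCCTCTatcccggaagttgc
Rpl22l1 (chr3:28805468-28805527, plus strand): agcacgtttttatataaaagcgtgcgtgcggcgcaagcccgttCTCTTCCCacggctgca
Rpl39 (chrX:37085203-37085262, minus strand): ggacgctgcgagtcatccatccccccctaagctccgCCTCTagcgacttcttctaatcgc
The run had 18 bases at Rpl35, 9 at Rps27, 8 at Rps26 and Rpl22l1, and 5 at Rps27l and Rpl39. RefSeq gave 2 starts for Rps27l, of which the window shows the listed one with the run. Motifs were also counted on both strands of the 300-base windows, each by itself, so that matches could overlap. A gene with several starts was counted if any of its windows held the motif. CCGGAA, the core of sites for ETS family factors, was in 27 of 42 (64.3%) against 16.7% of all genes with a window. AAGATGGC, which holds the YY1 core, was in 4 (9.52% against 3.19%), GGGCGG, the GC box, in 24 (57.1% against 38.2%), and TATAAA in 6 (14.3% against 15.7%). A match describes the letters only, and a run was also present near the starts of Rps27, Rpl39 and Rpl22l1, which were not called over all tumours with their own probe sets.

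Ribosomal protein genes were higher in the tumours of every group than in non-tumour cerebellum. Over all tumours 41 of 45 were higher and 1 was lower, where 26.8% of all genes were higher and 25.6% lower. The median difference of the 45 was 1.39, or 2.61-fold (quartiles 1.09 and 1.54), beside a median of 0.02 for all genes, and 37 of the 42 called genes differed by at least 2-fold. The mean log2 signal of the 45 genes was 9.83 to 10.11 on the 6 non-tumour arrays and 10.82 to 12.00 on the 21 tumour arrays, so the ranges did not overlap. For 29 of 45 genes all 21 tumour arrays lay above all 6 non-tumour arrays, as they did for 8.14% of all genes tested. Without the 5 arrays of high 3′ to 5′ ratio 42 genes were higher and 1 lower (median 1.43), and without the 7 dim arrays 42 were higher and 2 lower (median 1.32). With no scaling of the arrays 34 were higher and 2 lower, while the median of all genes moved to -0.34 and that of the 45 genes stood at 1.04.

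**Figure D1:**
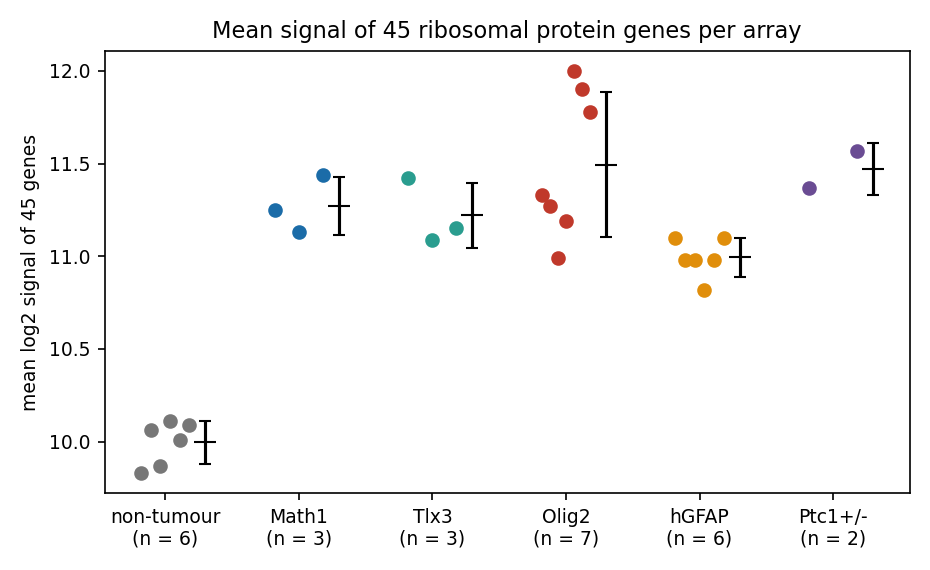
Each point is the mean log2 signal of the 45 ribosomal protein genes on an array, by group, and the bars show the group mean ± SD. The 6 non-tumour arrays sit between 9.83 and 10.11, below all tumour arrays (10.82 to 12.00), and the 7 Olig2 arrays spread from 10.99 to 12.00.

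Genes of both subunits were raised. In the large subunit 21 of 22 genes were higher (median 1.40, from -0.05 to 2.78), and in the small subunit 18 of 19 (median 1.49, from -0.60 to 2.23). Of the 4 paralogs 2 were higher and 1 was lower. The largest differences were those of Rps27l, Rplp0, Rpsa, Rpl22 and Rps26.

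The large subunit carries a lateral stalk, built on Rplp0 with the acidic proteins Rplp1 and Rplp2, which recruits elongation factors. Rplp0 stood at 9.17 to 10.30 (median 9.87) on the non-tumour arrays, at 12.72, 12.73 and 12.68 in Math1, at 12.61, 12.67 and 12.57 in Tlx3 and at 13.18 and 12.95 in Ptc1+/- tumours. It ranged from 12.18 to 13.46 (median 12.82) in Olig2 and from 11.70 to 12.26 (median 12.04) in hGFAP tumours. All tumour arrays lay above all controls, with the lowest tumour values in hGFAP tumours. The difference was 2.78 (SE 0.17, adjusted p = 5.14e-14), a 6.88-fold rise. Rplp2 rose by 1.54 (SE 0.16, adjusted p = 2.45e-09), from 10.63 ± 0.11 (SD, n = 6) on non-tumour arrays to group means between 11.72 and 12.37. Rplp1 was not among the 48 genes.

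Rpl22, an RNA-binding protein that is not needed for general translation and has the paralog Rpl22l1, was at 9.83 to 10.35 (median 10.11) in non-tumour tissue. Its signal was 12.59, 12.11 and 12.61 in Math1, 12.64, 12.19 and 12.15 in Tlx3, and 12.46 and 12.01 in Ptc1+/- tumours. Olig2 tumours ranged from 11.89 to 12.99 (median 12.50) and hGFAP tumours from 11.77 to 12.35 (median 12.19). No tumour array reached down to the controls, and Rpl22 was 2.21 higher (SE 0.14, adjusted p = 8.30e-14), or 4.63-fold. Its 3 probe sets gave differences of 1.05 to 2.78, all called. Rpl27a was 1.55 higher (SE 0.22, adjusted p = 7.14e-07), but its 0.69 in Tlx3 tumours was not called (adjusted p = 0.0951).

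In the small subunit Rpsa, also known as the laminin receptor precursor, was at 9.94 to 10.60 (median 10.44) in non-tumour tissue. Math1 tumours were at 12.52, 12.30 and 12.72, Tlx3 tumours at 12.73, 12.23 and 12.52, and Ptc1+/- tumours at 12.83 and 13.06. Olig2 tumours ranged from 12.53 to 13.43 (median 12.79) and hGFAP tumours from 11.94 to 12.56 (median 12.17). Tumour and control arrays did not overlap, and the difference was 2.23 (SE 0.14, adjusted p = 6.29e-14). Rps26, a protein near the mRNA exit channel, rose by 1.98 (SE 0.12, adjusted p = 1.03e-13), from 10.42 to 10.91 on the controls to 12.24 to 13.26 on the tumour arrays. Rps2 was narrow in the controls, at 10.93 to 11.03, and reached 12.20 to 13.49 in the tumours, a rise of 1.72 (adjusted p = 2.66e-12). Rps4x, encoded on the X chromosome, rose by 1.86 (adjusted p = 3.21e-12), and Rps20 by 1.57 (adjusted p = 1.26e-11). The 4 probe sets of Rps20 gave 0.54 to 1.64, all called, and the lowest came from a set specific to the transcript.

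Rps19, the gene most often mutated in Diamond-Blackfan anaemia, and Rps9 were raised by as much but varied more. Rps19 was at 8.69 to 10.29 (median 9.39) in non-tumour tissue, 11.52, 11.15 and 11.79 in Math1, 11.88, 11.43 and 11.55 in Tlx3, and 11.56 and 12.39 in Ptc1+/- tumours. In Olig2 tumours it ran from 10.43 to 12.96 (median 11.46) and in hGFAP tumours from 9.87 to 10.60 (median 10.51), so that 1 tumour array lay within the control range. The difference was 1.95 (SE 0.28, adjusted p = 1.17e-06). Rps9 differed by the same 1.95 with a larger SE of 0.38 (adjusted p = 6.73e-05), and 17 of 21 tumour arrays lay above every control. Its 3 probe sets gave 1.13 to 1.95, all called. The 4 arrays of Rps9 not above every control were Olig2 replicates 3 and 4, at 9.65 and 9.82, and hGFAP replicates 4 and 5, at 9.18 and 9.71, of which all but hGFAP replicate 5 had a high 3′ to 5′ ratio. What part the ratio had in this was not tested.

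**Figure D2:**
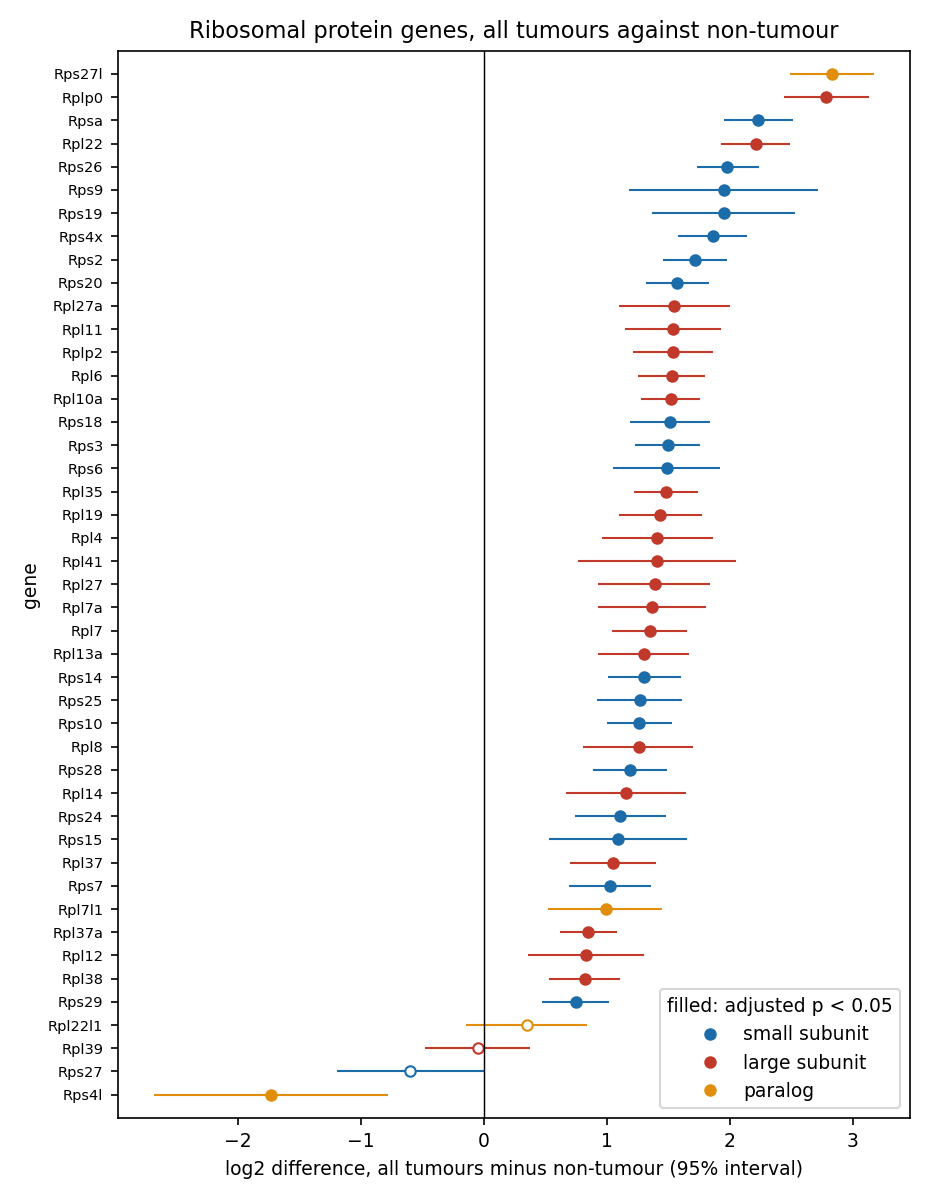
Log2 difference of each of the 45 genes, all tumours minus non-tumour, with its 95% interval, coloured by subunit or as a paralog and filled where the limma adjusted p was under 0.05. The points run from -1.73 for Rps4l to 2.83 for Rps27l, and 41 filled points lie above 0.

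The smallest rises among the called genes of the subunits, leaving aside the paralog Rpl7l1, were those of Rps29, Rpl38, Rpl12, Rpl37a, Rps7 and Rpl37. Rps29, a small zinc-binding protein, rose by 0.75 (SE 0.13, adjusted p = 2.57e-05), from 12.30 to 12.98 on the controls to 13.01 to 14.05 on the tumour arrays. Rpl38, which in mice affects translation of Hox mRNAs and skeletal patterning, rose by 0.82 (adjusted p = 1.52e-05), with 11.60 to 12.17 on the controls and 12.46 to 13.64 on the tumour arrays. Although small, neither rise left an overlap between tumour and control arrays. Rpl37a rose by 0.85 (adjusted p = 2.28e-07), Rps7 by 1.03 (adjusted p = 4.67e-06) and Rpl37 by 1.05 (adjusted p = 7.02e-06). Rpl12, a protein at the base of the stalk, rose by 0.83 on its own probe set (SE 0.23, adjusted p = 0.00306). On that set its 0.76 in Tlx3 and 0.77 in Ptc1+/- tumours were not called (adjusted p = 0.0773 and 0.129). The probe set shared by Rpl12 and Gm11425 was 2.01 higher (SE 0.25, limma adjusted p = 8.28e-08). Its mean was 10.13 on the controls and 11.36 to 12.43 in the tumour groups. Which transcripts both sets read was not tested. Without scaling of the arrays the calls of Rps29, Rpl38, Rpl12, Rpl37a and Rpl37 over all tumours were lost (differences of 0.40 to 0.70). After quantile normalization the differences of Rps29, Rpl38, Rpl37a and Rps7 were 0.27, 0.34, 0.44 and 0.55, and the genes were still called. The 3 probe sets of Rpl37a gave 0.23 to 0.87, of which 2 were called.

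Rps27 and Rpl39 were not called with their own probe sets and were called higher with probe sets that they share with other genes. Rps27, a zinc-binding protein of the small subunit, was at 6.82, 5.58, 7.81, 7.55, 6.14 and 7.65 on its own probe set in non-tumour tissue, at 6.54, 6.27 and 5.96 in Math1, and at 6.64, 6.07 and 6.15 in Tlx3 tumours. Olig2 tumours ranged from 5.70 to 7.21 (median 6.26) and hGFAP tumours from 5.09 to 6.56 (median 5.99), and Ptc1+/- tumours were at 6.28 and 7.63. Tumours and controls overlapped. The difference of -0.60 (SE 0.29) was not called (adjusted p = 0.0869), although it was called lower in hGFAP tumours (-1.10, adjusted p = 0.0128). It was called lower over all tumours without non-tumour replicate 2 (-0.86, adjusted p = 0.0119), without non-tumour replicate 5 (-0.75, adjusted p = 0.0421), without Ptc1+/- replicate 2 (-0.73, adjusted p = 0.0389), without the dim arrays (-0.87, adjusted p = 0.0127), without scaling (-0.94, adjusted p = 0.0083), with array weights (-0.66, adjusted p = 0.035) and with brightness in the model (-0.84, adjusted p = 0.0111). Over 41 alternatives its adjusted p ran from 0.0083 to 0.269, with differences of -0.94 to -0.42. The probe set shared by Rps27 and Rps27rt went the other way, from 11.02 to 11.46 on the controls to 12.02 to 13.08 on the tumour arrays, 1.29 higher (SE 0.13, adjusted p = 3.36e-09). Rpl39, which lines the exit tunnel of the large subunit, was at 7.17 to 8.05 in non-tumour tissue and 5.64 to 8.43 in the tumours on its own probe set (difference -0.05, SE 0.21, adjusted p = 0.861). Its call as lower in Tlx3 tumours (-0.83, adjusted p = 0.0342) rested on Tlx3 replicate 2, at 5.64 beside 7.37 and 7.38, and was lost without it (-0.26, adjusted p = 0.545) and without non-tumour replicate 2, 3 or 5 (adjusted p = 0.0677, 0.0591 and 0.0615), and over 42 alternatives the adjusted p ran from 0.000418 to 0.545. The probe set shared by Rpl39 and Gm32211 was 0.84 higher (SE 0.16, adjusted p = 7.88e-05), from 12.12 to 12.69 on the controls to 12.67 to 14.04 on the tumour arrays, which overlapped slightly. Which transcripts each of these probe sets read was not tested.

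The same rise was seen over all probe sets. Of 94 probe sets assigned to a single member and past the filter, 85 were higher over all tumours and 1 was lower (median 1.36), where 24.4% of all 30107 probe sets tested were higher. Of 20 genes with at least 2 such probe sets, 15 had all of them called higher, and 0 had calls in opposite directions. Probe sets shared with other genes, mostly pseudogenes, cannot be credited to a gene, but 94 of 102 were higher and 1 was lower (median 1.17). The lower was a set shared by Rps15a and its pseudogene Rps15a-ps5 (-0.82, adjusted p = 0.0185). For 16 of the 45 genes the probe set used was of the kinds that the array maker marks as able to bind related transcripts.

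The paralogs Rps27l and Rpl22l1 changed in their ratio to the parent gene, Rpl7l1 did not pass the test, and Rps4l was too often at the floor for its ratio to be read. Levels of different probe sets cannot be compared, so the log2 ratio of paralog to parent was taken on each array and the change of that ratio was tested by an exact two-sided permutation test over 296010 splits of the arrays, adjusted over the 4 pairs. The smallest p-value that this test can give is 3.38e-06.

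Rps27l, a target gene of p53, was the most raised of the 45. It was at 7.87 to 8.56 (median 7.98) in non-tumour tissue, at 11.36, 10.82 and 11.14 in Math1, 11.30, 10.93 and 10.94 in Tlx3, and 10.87 and 10.80 in Ptc1+/- tumours. Olig2 tumours ranged from 10.24 to 11.60 (median 11.08) and hGFAP tumours from 10.12 to 11.04 (median 10.52). No tumour array came near the controls, and the difference of 2.83 (SE 0.17, adjusted p = 2.48e-14) is a 7.11-fold rise. Its 3 probe sets gave 2.56 to 2.83. Relative to Rps27 it rose by 3.49 (exact permutation p = 3.38e-06, adjusted 6.76e-06), and all 21 tumour ratios (3.17 to 5.95) lay above the 6 control ratios (0.09 to 2.55). With the shared probe set of Rps27 in place of its own, the ratio rose by 1.45 (exact permutation p = 1.01e-05, adjusted 2.03e-05), so that Rps27l rose more than Rps27 by either probe set. With the shared set the tumour ratios (-2.78 to -1.02) overlapped slightly with the control ratios (-3.41 to -2.73).

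Rpl22l1, the paralog of Rpl22, was not called although its parent was. It was at 10.52 to 11.17 (median 10.73) in non-tumour tissue, at 11.58, 11.47 and 11.58 in Math1, 11.72, 11.47 and 11.14 in Tlx3, and 10.85 and 10.83 in Ptc1+/- tumours. In Olig2 tumours it ranged from 9.75 to 12.01 (median 11.33) and in hGFAP tumours from 9.54 to 11.41 (median 10.84). The tumour arrays spread above and below the controls, with 12 of 21 above all of them. The difference of 0.35 (SE 0.24) was not called (adjusted p = 0.235), nor was it in any single tumour group, and it was called without the arrays of high 3′ to 5′ ratio (0.46, adjusted p = 0.0132), without the dim arrays (0.52, adjusted p = 0.00444), with array weights (0.41, adjusted p = 0.0362) and with brightness in the model (0.56, adjusted p = 0.0377). Over 41 alternatives the adjusted p ran from 0.00444 to 0.996. Relative to Rpl22 it fell by 1.90 (exact permutation p = 3.38e-06, adjusted 6.76e-06), with tumour ratios of -2.23 to -0.40 below control ratios of 0.53 to 0.94. The ratio fell by 2.45 and by 0.74 with the other probe sets of Rpl22 (adjusted exact permutation p = 6.76e-06 and 0.00594).

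Rpl7l1, a relative of Rpl7, rose by 0.99 (SE 0.23, adjusted p = 0.000559), from 6.44 to 7.57 on the controls to 6.82 to 8.95 on the tumour arrays, and its 0.77 in Math1 tumours was not called (adjusted p = 0.0749). Without scaling of the arrays its call over all tumours was lost (0.64, adjusted p = 0.121, the highest of 41 alternatives, whose lowest was 6.37e-06), and its 3 probe sets gave 0.57 to 0.99. Its parent Rpl7 rose by 1.35 (adjusted p = 6.66e-09). The ratio changed by -0.41 (exact permutation p = 0.105, adjusted 0.105), with overlapping ranges of -5.97 to -3.74 in the tumours and -4.56 to -3.39 in the controls. Averaging the probe sets of a gene gave -0.77 with an adjusted exact permutation p of 4.05e-05, and preferring the probe sets specific to a transcript gave -0.66 (0.0201). With the probe sets as reported, leaving out non-tumour replicate 1 or 6 gave -0.54 each (adjusted exact permutation p = 0.0487 and 0.045). Over 34 alternatives the adjusted p ran from 4.05e-05 to 0.497, so the outcome for this pair depended on the probe set and on single control arrays.

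Rps4l, a relative of Rps4x, was the only member called lower over all tumours. It was at 4.15, 6.32, 6.12, 6.29, 5.75 and 4.11 in non-tumour tissue. All Math1 and Ptc1+/- arrays were at the floor of 3.37 used for low signals, as were 2 of 3 Tlx3 arrays, and Olig2 and hGFAP tumours had medians at the floor with highest values of 5.88 and 6.23. Tumour and control arrays overlapped through those few arrays. The fitted difference was -1.73 (SE 0.46, adjusted p = 0.00234), which the floor limits in size, and the signals in both groups were low. With the floor at the 10th percentile it was -2.78.

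**Figure D3:**
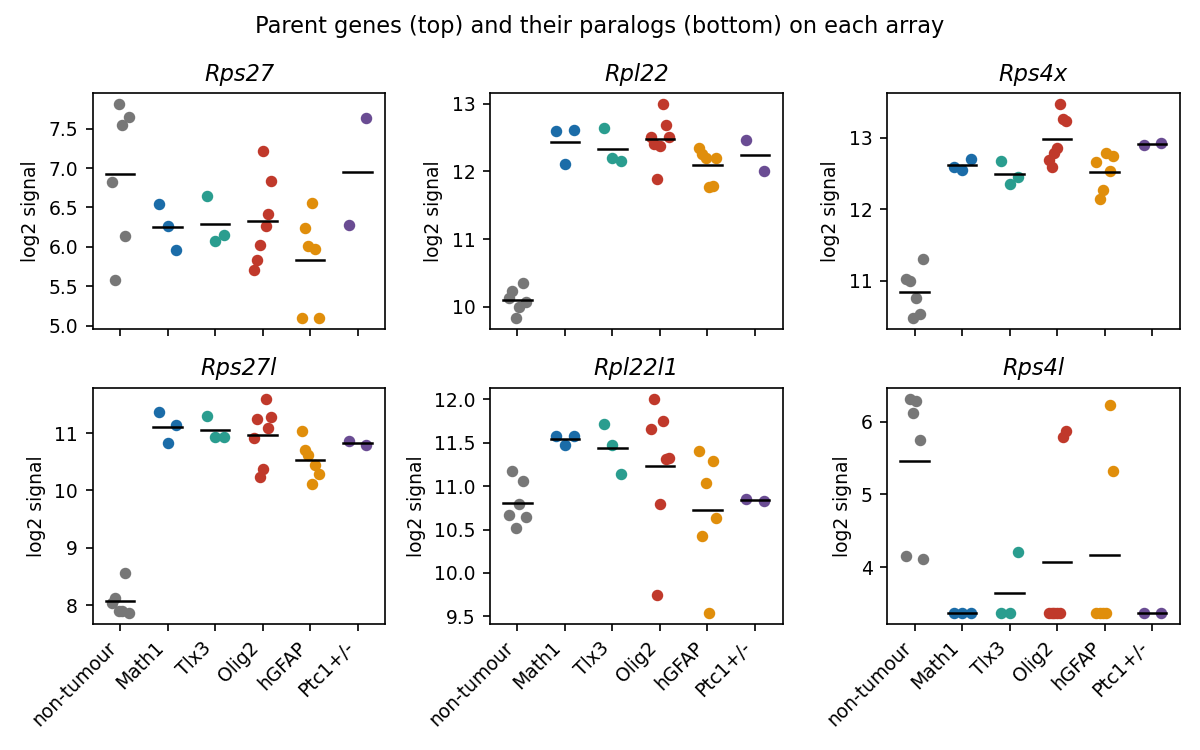
Log2 signal on each array for 3 parent genes (top) and their paralogs (bottom), by group, with bars at the group means; each panel has its own axis, since levels of different probe sets are not comparable. Rps27l separates tumours (10.12 to 11.60) from controls (7.87 to 8.56), Rpl22l1 overlaps although Rpl22 does not, and Rps4l lies at the floor of 3.37 on most tumour arrays; Rps27 is shown by its own probe set, and its shared one was higher in the tumours.

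Each tumour group was compared with the same 6 non-tumour arrays, so the comparisons share their controls and are given side by side. In Math1 tumours 40 genes were higher and 1 was lower (median 1.35), where 19.3% of all genes were higher and 18.1% lower. In Tlx3 there were 38 higher and 2 lower (median 1.31, with 19.7% and 20.6% of all genes). Olig2 tumours had 41 higher and 1 lower (median 1.63, with 24.7% and 25% of all genes), and hGFAP tumours 39 higher and 1 lower (median 1.02, with 22.5% and 19.2%). Ptc1+/- tumours had 40 higher and 1 lower (median 1.62, with 17.9% and 18.4%). The share of members called higher, from 84.4% to 91.1%, was above the background in every group, and 35 genes were called higher in all 5.

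Genes called higher in only some groups were Rpl12, Rpl14, Rpl27a, Rpl7l1, Rps15 and Rps9. Rps15 was 0.33 higher in hGFAP tumours (adjusted p = 0.448) beside 1.24 to 1.37 in the other 4. Its other probe set had a mean of 10.83 in hGFAP, 11.34 to 11.95 in the other tumour groups and 10.25 on the controls. After group means were subtracted, Rps15 on the probe set used fell as the 3′ to 5′ ratio rose (r = -0.85 over 27 arrays). What part the ratio had in its hGFAP level was not tested. Rps9 was 0.84 higher in hGFAP tumours (adjusted p = 0.146) beside 2.11 to 2.44 in the other groups. The other probe sets of Rps9 did not show a lower level in hGFAP tumours. Their hGFAP means were 9.79 and 6.34, beside 9.66 to 9.80 and 6.19 to 6.86 in the other tumour groups. Rpl14 was 0.83 higher in Tlx3 tumours (adjusted p = 0.0588). Its own probe set had low signals, at 4.07 to 5.42 on the controls. The probe set shared by Rpl14 and its pseudogene Rpl14-ps1, at 9.08 to 10.87 on the controls, was not called over all tumours (0.52, SE 0.24, limma adjusted p = 0.0837). Without scaling, 16 genes were higher and 2 lower in hGFAP tumours, and 4 higher and 1 lower in Ptc1+/- tumours, whose arrays had trimmed means of 92.1 and 47.3. Against the single control of their own line, 18 genes were called higher and 0 lower in Ptc1+/- tumours, a fit in which the lone control is assumed to vary like the other groups.

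**Figure D4:**
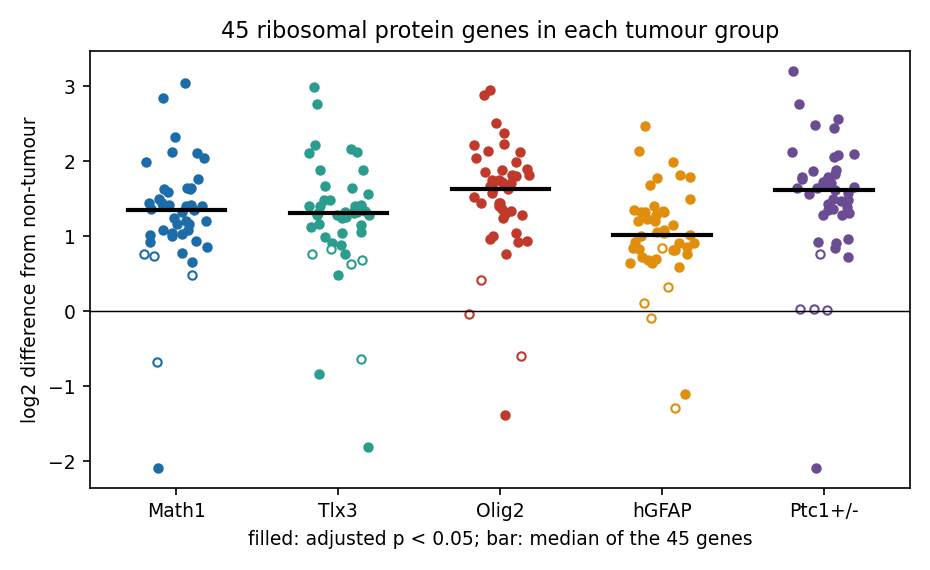
Log2 difference from non-tumour tissue of the 45 genes in each tumour group, filled where the limma adjusted p was under 0.05, with the median as a bar. The medians run from 1.02 in hGFAP to 1.63 in Olig2 tumours, and all groups share the 6 non-tumour arrays.

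Between tumour groups the differences were smaller. Between tumours of the wider drivers (hGFAP and Olig2) and those of Math1 and Tlx3, limma called 0 of 45 members. It called 0.259% of all genes. The unadjusted limma p was under 0.05 for 4 of 45 members, a smaller share than the 2091 of all 13527 genes. The median difference was 0.00, and the largest was that of Rpl27a, at 0.90 (95% interval 0.43 to 1.36, adjusted p = 0.0790). Without scaling, 31 genes were called lower in the wider drivers with a median of -0.79, while the median of all genes was -0.76. Leaving out Olig2 replicate 2, 1 gene was called higher.

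Ptc1+/- against the SmoM2 tumours gave 0 called members (0.547% of all genes). Here 2 of 45 members had an unadjusted limma p under 0.05, a smaller share than the 1587 of all 13527 genes. Members were a median of 0.25 higher in Ptc1+/- tumours, from -0.45 for Rps4l to 0.78 for Rps27. Rps19 was 0.66 higher, with a 95% interval of -0.25 to 1.58, and such intervals leave room for sizeable differences with 2 arrays. Tlx3 against Math1 gave 0 called members (0% of all genes). Among all 13527 genes 576 had an unadjusted limma p under 0.05, and among the 45 members 1 did. That gene was Rpl39, 1.31 lower in Tlx3 (95% interval -2.05 to -0.58, adjusted p = 1), which again includes the low array of Tlx3 replicate 2.

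Tumours from hGFAP-cre had some lower ribosomal protein signals than those from Olig2-tva-cre, in calls that depended on single arrays. Of 45 genes 10 were lower and 0 higher, where 1.07% of all genes were lower and 2.99% were called in either direction, and the median difference of the 45 was -0.54 beside 0.09 for all genes. The mean of the 45 genes was 10.82 to 11.10 (median 10.98) on the hGFAP arrays and 10.99 to 12.00 (median 11.33) on the Olig2 arrays, so the ranges overlapped. The called genes were Rps19, Rpl11, Rplp0, Rps7, Rpsa, Rps14, Rps3, Rpl10a, Rpl6 and Rps10, of either subunit. Rps19, at a median of 10.51 in hGFAP and 11.46 in Olig2 tumours, differed by -1.32 (SE 0.33, adjusted p = 0.0312). Rps9 had the largest difference with the probe set used, -1.38 (SE 0.44), and was not called (adjusted p = 0.0697). Its other probe sets had means of 9.79 and 6.34 in hGFAP and 9.72 and 6.19 in Olig2 tumours. Rpl11, which binds Mdm2 when ribosome assembly is disturbed, was at 10.04 to 10.83 (median 10.59) in hGFAP and 10.50 to 12.08 (median 11.43) in Olig2 tumours. It differed by -0.93 (SE 0.22, adjusted p = 0.0258), with overlapping arrays. Rplp0 differed by -0.81 (SE 0.20, adjusted p = 0.0287) and Rpl10a by -0.61 (SE 0.14, adjusted p = 0.0211), the latter with 12.11 to 12.31 in hGFAP and 12.50 to 13.27 in Olig2 tumours, which did not overlap.

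Cell type markers moved with this comparison too. The median difference, hGFAP minus Olig2, was 0.84 for mature granule neuron markers (1 of 7 called higher), 0.92 for Purkinje cell markers (0 of 6 called), 0.58 for oligodendrocyte markers (0 of 7 called), 0.28 for astrocyte markers (2 of 7 called higher) and -0.58 for mitosis markers (1 of 8 called lower). It was -0.02 for microglia and macrophage markers (1 of 9 called higher), -0.10 for granule neuron precursor markers (0 of 8 called) and 0.11 for 2 blood markers (0 called). Their part in the difference of the ribosomal protein genes was not tested.

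This difference moved with array quality within the Olig2 group. The mean of the 45 genes was 11.78 to 12.00 in Olig2 replicates 5, 6 and 7, which were dim with low 3′ to 5′ ratios. It was 10.99 and 11.19 in replicates 3 and 4, which were dim with high ratios, and 11.33 and 11.27 in replicates 1 and 2, which were brighter. Leaving out replicate 5, 6 or 7 gave 0, 1 and 0 called genes, where 0.688%, 1.03% and 0.606% of all genes were called. Leaving out replicate 2, 3 or 4 gave 17, 25 and 23, where the share of all genes was 5.15%, 10.3% and 9.21%, so the calls over all genes moved with those of the members. Leaving out hGFAP replicate 2, 3 or 5 gave 6, 4 and 2 (1.97%, 1.33% and 1.01% of all genes). Without all dim arrays 0 were called (median -0.30), and without the arrays of high ratio 25 were. With the 3′ to 5′ ratio in the model 2 were called, after quantile normalization 2 (median -0.18), and with only these 2 groups in the fit 0.

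Rps25, which certain viral and cellular mRNAs need for internal initiation, ran against the other members in these arrays. It was at 8.78, 8.70, 8.70 and 8.72 in Olig2 replicates 1 to 4 and at 8.14, 7.66 and 7.76 in replicates 5 to 7, where the mean of the 45 was highest. In Ptc1+/- tumours it was at 8.70 and 7.83, with the lower value on the array where the mean of the 45 was higher (11.37 and 11.57). All 21 tumour values still lay above the controls (7.05 to 7.64), and Rps25 rose by 1.27 over all tumours (SE 0.17, adjusted p = 2.73e-07). Over the 4 SmoM2 groups together the F statistic called 0 members (0.946% of all genes). The unadjusted limma p was under 0.05 for 26 of 45 members, a larger share than the 2853 of all 13527 genes. Among the members Rpl11 had the smallest p (adjusted p = 0.0588). With array weights 17 were called, without the arrays of high 3′ to 5′ ratio 18, without the dim arrays 3 and without scaling 6.

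**Figure D5:**
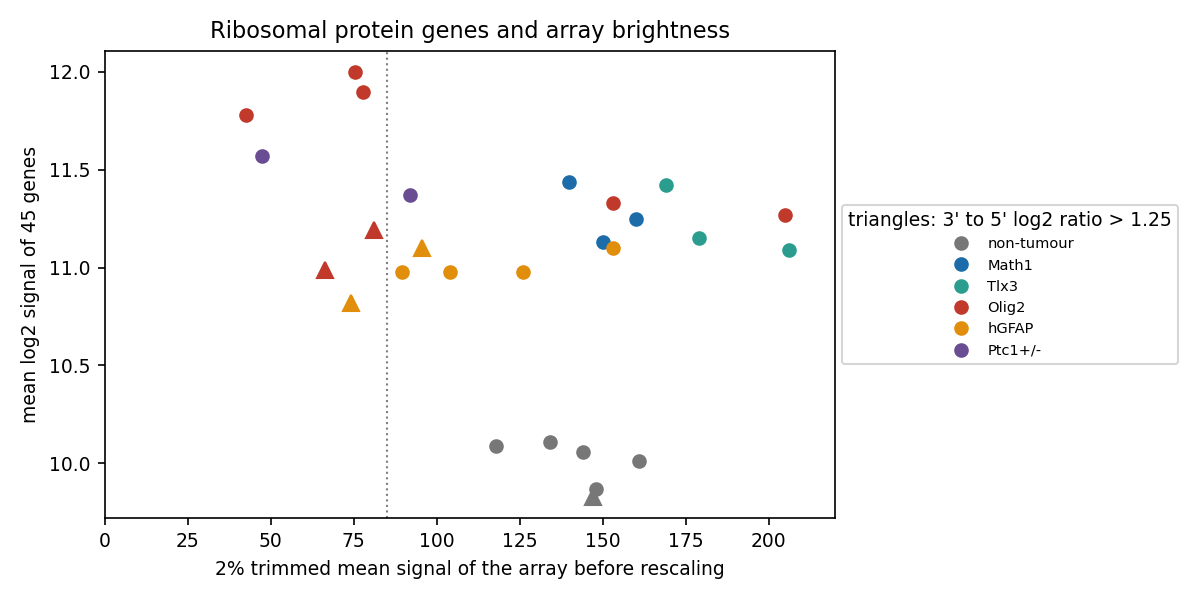
Mean log2 signal of the 45 genes on each array against the trimmed mean signal of that array before scaling; triangles mark the 5 arrays with a high 3′ to 5′ ratio, and the dotted line marks 85. Olig2 arrays left of the line hold both the highest values (11.78 to 12.00) and 2 triangles at 10.99 and 11.19, and the 6 non-tumour arrays, up to 10.11, lie right of the line.

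Other genes of the translation machinery were read as lists chosen by function. Beside their counts, 26.8% of all genes tested were higher over all tumours and 25.6% lower. All 15 tested genes of a list of other TOP mRNAs, mostly of translation factors but also Nap1l1, Npm1 and Hnrnpa1, were higher over all tumours and 0 lower (median 1.24), from Eif4b at 0.52 (adjusted p = 0.00865), a helicase cofactor, to Nap1l1 at 2.00 (adjusted p = 1.91e-08), a histone chaperone. Of 15 initiation factors 13 were higher and 0 lower (median 0.84), from Eif5 at -0.08 (adjusted p = 0.749) to the helicase Eif4a1 at 1.66 (adjusted p = 1.05e-07). Of 19 ribosome biogenesis genes 16 were higher and 0 lower (median 0.95), from Bysl at 0.07 (adjusted p = 0.817) to the box C/D snoRNP protein Nop58 at 2.21 (adjusted p = 1.48e-10). Fau and Rps3a1, ribosomal proteins outside the symbol rule, rose by 1.04 and 1.09 (adjusted p = 0.00576 and 4.08e-06).

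Mitochondrial ribosomal proteins, which serve the separate ribosome of mitochondria, had a lower median. Of 73 tested, 21 were higher, close to the 26.8% of all genes called higher. Only 3 were lower, a smaller share than the 25.6% of all genes called lower. Their median was 0.24, beside 0.02 for all genes, from Mrpl44 at -0.76 (adjusted p = 0.00844) to Mrpl52 at 1.02 (adjusted p = 7.40e-06). Among the kinases and regulators upstream of TOP translation and of ribosomal protein S6, calls were about as frequent as among all genes. Of 16, 3 were higher and 5 lower (median -0.31), beside 26.8% and 25.6% of all genes, from Rps6ka5 at -1.51 (adjusted p = 4.50e-08), a kinase that phosphorylates Creb and histone H3, to Rps6ka6 at 4.30 (adjusted p = 5.80e-14), a p90 ribosomal S6 kinase. Rps6 itself, the substrate of the S6 kinases, rose by 1.49 (adjusted p = 7.79e-07), from 6.18 to 6.74 on the controls to 7.27 to 8.87 on the tumour arrays.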

How the data were processed

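The authors deposited a linear signal intensity for each of 45101 probe sets on 27 arrays. The submitters' processing notes name MAS5 as the tool; its version and scaling target are not given in the sources used here. Per the labels' protocols, biotinylated cRNA was made from total RNA. Here each array was scaled to a common 2% trimmed mean (124), signals under the 20th percentile (10.3) were raised to it, and log2 was taken. Probe sets above the table's median (45.6) on at least 3 arrays were kept, and for each gene the one of highest mean with a single annotated gene was used. The platform annotation gave 34958 probe sets 1 gene, 932 several and 9211 none, and 34754 matched RefSeq by Entrez number. A low signal can be background, since no detection calls were used.

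Groups were compared with limma 3.58.1 in R 4.3.3, with a mean for each of 6 groups, empirical Bayes moderation with trend and robust fit, and Benjamini-Hochberg adjustment over 13527 genes. The fit was tested on simulated data. The members, lists and tests were chosen with earlier results of these data known. Genes were named when they were paralogs or their parents, stalk proteins or Rpsa, the 8 largest and 8 smallest differences over all tumours, the 2 largest and 2 smallest in each further comparison, the 4 smallest p-values among SmoM2 groups, or the extremes of a list; genes called between hGFAP and Olig2 tumours, called in only some groups, or lying at the ends of a distribution, with Rps6, were named after their values were seen. Alternatives changed the scaling, floor, filter, probe set, arrays in the fit, moderation, the weights of arrays, the controls, a block on replicate numbers and the 3′ to 5′ ratio, and left out each array in turn; brightness as a covariate and other probe sets of a parent gene were added after seeing the data. Proteins and probe sets with no listed gene were not analysed here.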

Additional observations from a re-analysis of the deposited data

Results flagged for a closer look

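In 96 checks of a gene within a group of 4 to 10 arrays, 4 arrays stood apart from the rest of their group, where chance flags about 1 in 20. Rpl38 was at 11.6 in non-tumour replicate 3, beside 12.02 to 12.17 in the other controls. Rps27l was at 8.56 in non-tumour replicate 5, beside 7.87 to 8.13, and still below every tumour array. In hGFAP replicate 4, which has a high 3′ to 5′ ratio, Rpl7l1 was at 6.82 beside 7.83 to 8.38, and Rps19 at 9.87 beside 10.4 to 10.6.

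The 10 ribosomal protein genes called lower in hGFAP than in Olig2 tumours are a difference between 2 tumour groups in the fit of all 6 groups. The count was 0 with only these 2 groups in the fit, 0 without Olig2 replicate 5 or 7 and 1 with a replicate block. The 94 probe sets shared with other genes that were higher in the tumours lie outside the main measurement, which used probe sets of a single gene.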

How the results depend on the processing

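Of 167 recomputed counts of called genes under planned and added settings, 150 stayed within 1.5 times the reported count, as did 283 of 297 with an array left out. For named genes 532 of 615 values stayed on their side of the threshold, 75 lost the call, 8 gained it and 0 reversed. A change of direction was counted as a reversal only where a call was involved, so values that were not called could change sign. With an array left out, the counts ran from 0 to 25 for hGFAP against Olig2, 0 to 1 for the wider against the granule drivers and 0 to 10 among the SmoM2 groups, and the Rpl7l1 ratio from -0.54 to -0.31.

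Without scaling the counts were 0 for hGFAP against Olig2, 18 for hGFAP and 5 for Ptc1+/- against non-tumour, 31 for the wider against the granule drivers and 6 among the SmoM2 groups; it moved the median of all genes by over 0.1. Quantile normalization, the 3′ to 5′ ratio as a covariate, these groups alone and the dim arrays left out gave 2, 2, 0 and 0 for hGFAP against Olig2, and the arrays of high ratio left out gave 25 there and 18 among the SmoM2 groups. Leaving out the dim arrays gave 3 among the SmoM2 groups. Array weights gave 1 for the wider drivers, 1 for Tlx3 against Math1 and 17 among the SmoM2 groups. The control of the own line gave 18 for Ptc1+/-. The Rpl7l1 ratio was -0.77 with averaged probe sets and -0.66 with specific ones. The cause was not tested.

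Replicate numbers are shared across groups, but same-numbered arrays did not deviate together (mean r of 0.0313 over 49 pairs, against -0.00579 over 244 pairs of different numbers). With a replicate block, 1 gene was called for hGFAP against Olig2.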
